A study of Mus musculus with 27 samples.

Results

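The genes described here are 10 genes of the G1 phase, chosen by their symbols: the D-type cyclin genes Ccnd2 and Ccnd3, the kinase genes Cdk4 and Cdk6, the E-type cyclin genes Ccne1 and Ccne2, the transcription factor gene E2f1, the pocket protein gene Rb1, and the kinase inhibitor genes Cdkn1b and Cdkn2c. They were chosen with earlier results of these data known. All 10 were found among the 54532 genes of the deposited tables, and all 10 passed the filter on low counts in every comparison. They were measured by RNA-seq in B cells from the spleen of C57BL6 mice (genotype WT), which the study enriched by removing other cells with a Pan B kit and cultured for 3 h. The study calls the samples of a group biologically independent, but the age of these mice, and whether each sample came from a separate mouse or culture, are not given in the sources used here, so the p-values measure the spread between these libraries. In the first experiment the groups had 4 libraries each: no stimuli, lipopolysaccharide (LPS, a T-independent stimulus), LPS with 1 μM disulfiram (DSF, a drug known as an aldehyde dehydrogenase inhibitor), IL-4+anti-CD40 (a T-dependent stimulus), and IL-4+anti-CD40 with 1 μM DSF. The second experiment had 1 library for each of these groups and 1 for each stimulus with 1 μM ibrutinib, an inhibitor of Bruton's tyrosine kinase. The sample titles name a vehicle for the stimulated cells without inhibitor, and none for the unstimulated cells. DMSO stands in the sample codes of the second experiment only, there also for the unstimulated library. The study itself codes all groups without inhibitor as DMSO.

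A resting lymphocyte leaves quiescence when D-type cyclins accumulate, bind CDK4 or CDK6 and phosphorylate the retinoblastoma protein, which frees E2F factors to turn on the genes of DNA synthesis. E-type cyclins with CDK2 carry the step into S phase, and inhibitors set the threshold: p27, the product of Cdkn1b, holds back cyclin E complexes, whereas p18, the product of Cdkn2c, binds CDK4 and CDK6. In mature B cells cyclin D2 is the D-type cyclin best known for its induction by mitogens, and p27 and the p130 pocket protein mark quiescence.

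Depth ran from 17804851 to 23632992 counts a library in the first experiment and from 16049295 to 24619776 in the second. Levels are in CPM, reads scaled to the size of the library after TMM normalisation, unless FPKM, which also divides by gene length, is named. All 7 B cell markers were detected in every group, with a sum of 3205 to 8587 CPM in the first experiment, and 8 T cell markers summed to 21.7 to 46.0 CPM. Myeloid markers summed to 545 to 662 CPM in unstimulated libraries and to 155 to 291 CPM in the stimulated ones of the first experiment, so they moved with stimulation, and their part in the results was not tested. The unstimulated libraries stood apart from each other in pairs. Libraries 1 and 2 correlated at 0.998 and libraries 3 and 4 at 0.997, but none of one pair correlated above 0.973 with one of the other (log2 CPM over 15575 genes, a description). Neutrophil markers summed to 61.3 and 63.2 CPM in libraries 1 and 2 against 14.7 and 19.0 CPM in 3 and 4, erythroid markers to 3.56 and 2.90 against 20.9 and 22.0 CPM, and B cell markers to 5522 and 5474 against 8587 and 8514 CPM. Values against one pair alone are given beside several results, an alternative chosen after seeing the data. In such bulk samples fewer cells of a type and less RNA per cell cannot be told apart.

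Under LPS, Ccnd2, Cdk4 and Cdk6 rose, and Ccnd3, Ccne1, E2f1, Rb1, Cdkn1b and Cdkn2c fell against unstimulated cells. Under IL-4+anti-CD40, Ccnd2, Cdk4, Cdk6 and Ccne2 rose and Ccnd3, Ccne1, Rb1, Cdkn1b and Cdkn2c fell. That is 9 of 10 genes past an adjusted p of 0.05 (edgeR's quasi-likelihood test) under each stimulus, against a background in which most genes moved. Of the 14477 genes tested, 62.9% passed under LPS (29.6% higher and 33.3% lower), and 62.5% of 14433 under IL-4+anti-CD40 (30.4% higher and 32.1% lower). The members were chosen with earlier results of these data known, so their higher share is a description and not a test. The median log2 fold change of the 10 genes was -0.60 under LPS and -0.73 under IL-4+anti-CD40, beside -0.05 and -0.04 over all genes tested. Both comparisons use the same unstimulated libraries.

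DSF changed most of the 10 genes, and Ccnd2 by the largest log2 fold change under either stimulus. Under LPS it lowered 5 (Ccnd2, Cdk4, Cdk6, Ccne1, Rb1) and raised 4 (Ccnd3, Ccne2, E2f1, Cdkn1b) of the 10 genes, beside 71.1% of 14154 genes called in either direction (36% lower and 35.1% higher). Under IL-4+anti-CD40 it lowered Ccnd2, Cdk4 and Cdk6 and raised Ccnd3, Ccne2 and Cdkn1b, 6 of the 10 genes beside 61.8% of 14275 (31.6% lower and 30.1% higher), a share near the background. The 6 genes called under IL-4+anti-CD40 were called in the same direction under LPS. The median log2 fold change of the 10 genes under DSF was -0.00 under LPS and -0.17 under IL-4+anti-CD40, beside 0.00 and -0.02 over all genes, so as a group the 10 genes did not lean far to either side. The summed B cell markers moved with DSF, from 4556 to 4659 CPM under LPS alone to 3205 to 3392 CPM with DSF and from 4057 to 4485 CPM to 3353 to 3544 CPM under IL-4+anti-CD40. Plasma cell markers summed to 1821 to 1849 CPM under LPS and 2160 to 2334 CPM under LPS+DSF, and to 1380 to 1460 CPM under IL-4+anti-CD40 and 1601 to 1654 CPM with DSF. Myeloid markers moved from 173 to 195 CPM under IL-4+anti-CD40 to 232 to 291 CPM with DSF, and overlapped under LPS, at 155 to 178 CPM without and 169 to 177 CPM with DSF. Their part in the results was not tested.

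**Figure D1:**
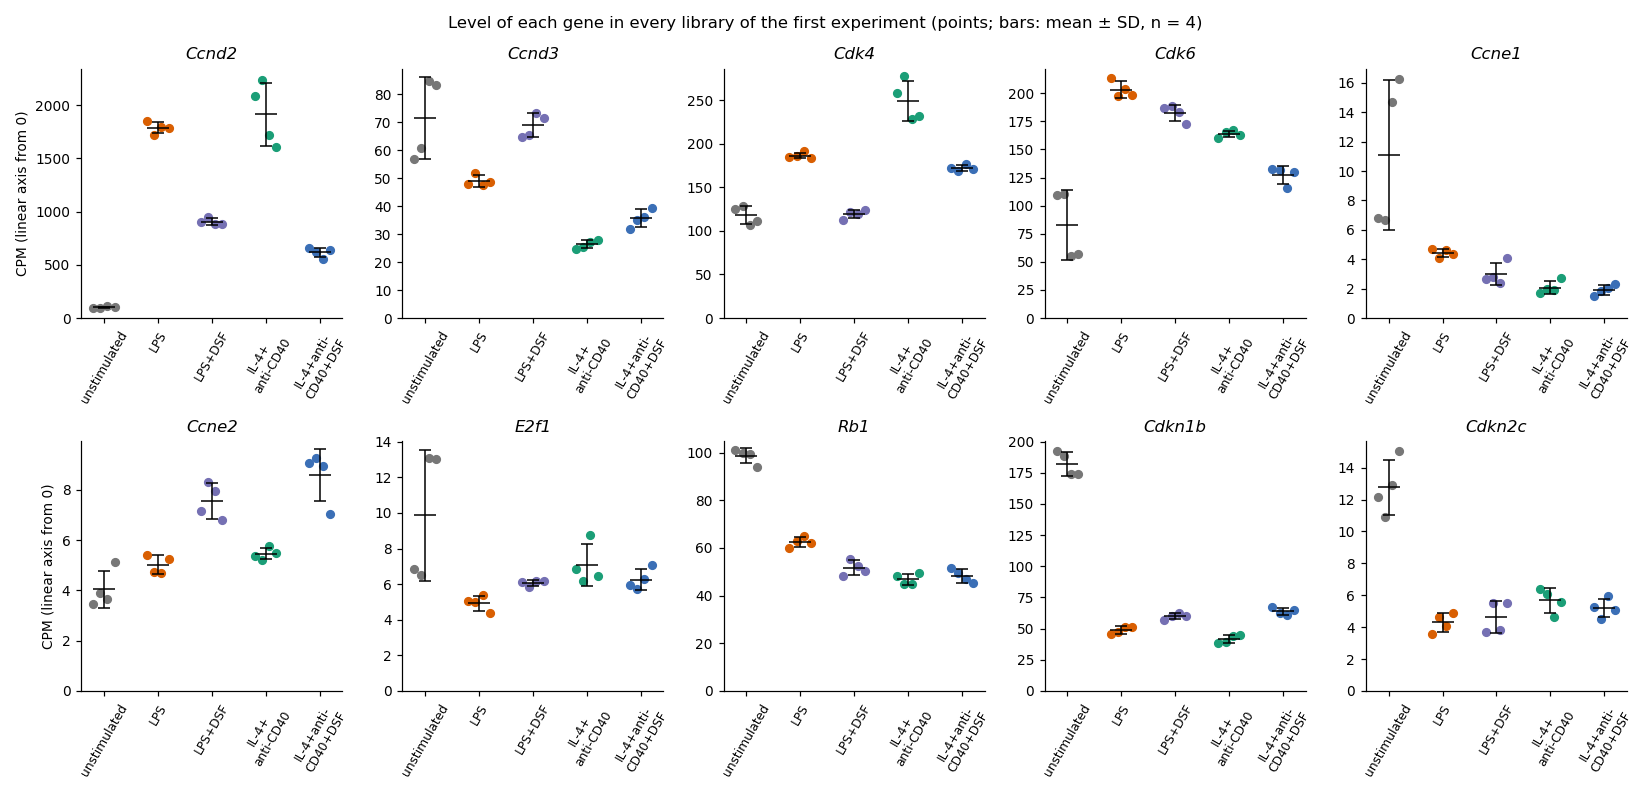
Level of each of the 10 genes (CPM, linear axis from 0) in the 20 libraries of the first experiment by group, with points for libraries and bars for the mean ± SD of 4 libraries. Ccnd2 rises from about 100.3 CPM to 1789 and 1914 CPM with the stimuli and lies at 904 and 617 CPM when DSF is added, whereas Cdkn1b falls from 182 CPM to 49.0 and 41.6 CPM.

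Ccnd2 (ENSMUSG00000000184, chromosome 6 of GRCm38 from 127125162 to 127152193, minus strand) encodes cyclin D2. Its level was 95.04, 95.5, 110.1 and 101 CPM in the unstimulated libraries, 1851, 1722, 1799 and 1782 CPM under LPS, and 2083, 2238, 1723 and 1612 CPM under IL-4+anti-CD40. The lowest stimulated library was thus far above the highest unstimulated one, and the levels under both stimuli overlapped. On the log2 scale the change was 4.16 (SE 0.08, adjusted p = 1.6e-08 in edgeR) under LPS, an increase of 17.8-fold, and 4.31 (SE 0.15, adjusted p = 2.4e-07) under IL-4+anti-CD40, an increase of 19.8-fold. LPS against IL-4+anti-CD40 gave -0.09 (SE 0.09, adjusted p = 0.47), which did not pass the test.

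With DSF, Ccnd2 was at 899, 951, 887 and 881 CPM under LPS and at 657, 618, 556 and 635 CPM under IL-4+anti-CD40. Every library with DSF was below every library with the same stimulus alone. On the log2 scale it moved by -0.97 (SE 0.04, adjusted p = 1.3e-16 in edgeR) under LPS and -1.70 (SE 0.11, adjusted p = 9.7e-07) under IL-4+anti-CD40, and the difference between these effects, 0.73 (SE 0.12, adjusted p = 0.00027), itself passed the test. The level with DSF was still 8.97-fold (LPS) and 6.16-fold (IL-4+anti-CD40) above that of unstimulated cells at 3 h. No group had DSF without a stimulus, so effects of DSF on the unstimulated level and on the rise cannot be told apart.

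Ccnd3 (ENSMUSG00000034165, chromosome 17 from 47505051 to 47599691, plus strand), which encodes cyclin D3, moved the other way. It was at 56.9, 60.7, 84.8 and 83.2 CPM without stimulus, at 47.8, 52.0, 47.5 and 48.6 CPM under LPS and at 24.8, 25.4, 27.2 and 27.8 CPM under IL-4+anti-CD40. No stimulated library reached an unstimulated one, and the IL-4+anti-CD40 libraries were the lowest. The log2 change came to -0.54 (SE 0.14, adjusted p = 0.0077 in edgeR) under LPS and -1.39 (SE 0.14, adjusted p = 4.7e-05) under IL-4+anti-CD40. LPS lay above IL-4+anti-CD40 by 0.90 (SE 0.06, adjusted p = 2.0e-07), the largest log2 difference between the stimuli among the 10 genes after that of Ccne1. Against unstimulated libraries 1 and 2 alone the change under LPS was -0.26.

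DSF raised Ccnd3 to 64.9, 65.5, 73.3 and 71.6 CPM under LPS and to 31.8, 35.0, 36.2 and 39.5 CPM under IL-4+anti-CD40. All 8 of these libraries lay above the libraries with the same stimulus alone. The log2 fold change was 0.51 (SE 0.05, adjusted p = 4.5e-09 in edgeR) and 0.38 (SE 0.08, adjusted p = 0.0011). Scaling by total counts gave 0.30 and 0.23. Against unstimulated cells, LPS+DSF differed by -0.06 (SE 0.14, adjusted p = 0.70), within the spread of the unstimulated libraries, and the sign turned to 0.18 against unstimulated libraries 1 and 2 alone (adjusted p = 0.014), to 0.01 without unstimulated replicate 3, and the difference passed the test at -0.30 against libraries 3 and 4 alone (adjusted p = 0.00011). IL-4+anti-CD40+DSF stayed lower than unstimulated by -0.9996 (SE 0.14, adjusted p = 0.00025).

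Because Ccnd2 and Ccnd3 moved apart, the makeup of the D-type cyclin transcripts changed. Ccnd2 held 54.1% ± 4.5 (SD, n = 4) of the summed FPKM of Ccnd1, Ccnd2 and Ccnd3 in unstimulated cells, 96.9% ± 0.17 under LPS and 98.3% ± 0.35 under IL-4+anti-CD40. With DSF its share was 92.2% ± 0.63 and 93.7% ± 0.73. The remaining part, mostly Ccnd3, was thus larger with DSF than with the stimulus alone in every library. In FPKM, Ccnd2 averaged 10.5 and Ccnd3 8.04 in unstimulated cells, nearly level per length, against 206 and 3.03 under IL-4+anti-CD40.

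Cdk4 (ENSMUSG00000006728, chromosome 10 from 127063534 to 127067920, plus strand) encodes the kinase that D-type cyclins activate. Its level was 125, 128, 107 and 111 CPM without stimulus, 185, 186, 191 and 184 CPM under LPS and 258, 278, 228 and 232 CPM under IL-4+anti-CD40. The 3 groups did not overlap. The change on the log2 scale was 0.66 (SE 0.07, adjusted p = 5.5e-05 in edgeR) under LPS and 1.14 (SE 0.10, adjusted p = 2.2e-05) under IL-4+anti-CD40, and LPS was lower than IL-4+anti-CD40 by -0.41 (SE 0.07, adjusted p = 0.00032). Scaling by total counts gave 0.43 under LPS.

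With DSF, Cdk4 was at 113, 122, 119 and 124 CPM under LPS, inside the range of the unstimulated libraries, and at 172, 169, 177 and 171 CPM under IL-4+anti-CD40. In log2 terms the change was -0.63 (SE 0.04, adjusted p = 3.4e-13 in edgeR) and -0.59 (SE 0.07, adjusted p = 1.8e-05), and the difference of -0.04 between these effects (SE 0.08, adjusted p = 0.81) did not pass the test. LPS+DSF against unstimulated cells gave 0.01 (SE 0.08, adjusted p = 0.91), and IL-4+anti-CD40+DSF stayed higher by 0.55 (SE 0.07, adjusted p = 0.00016). The comparison of LPS+DSF with unstimulated cells depended on scaling and on the unstimulated pair: total counts gave -0.40 (adjusted p = 0.0022) and unstimulated libraries 1 and 2 alone -0.14 (adjusted p = 0.015).

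The upstream sequence of Cdk4 is shown because it holds 4 copies of the E-box CACGTG, the hexamer bound by MYC and related factors. It was picked for this count among the member promoters, so the rarity of the count is a description and not a test. A link of the motif to the changes of Cdk4 was not tested. RefSeq promoters of GRCm38.p6 (250 bases before the RefSeq start) were matched for 7 of the 10 genes, 9 promoters in all, with no entry for Ccnd2, Ccne2 and Rb1. The RefSeq starts can differ from the gene starts printed here. The promoters of Cdk6, E2f1 and Cdkn2c, and the Ccnd3 promoter from 47593217, lie inside the printed gene spans. That of Ccne1 lies partly inside. The 250 bases at chr10:127063285-127063534, plus strand, read 5′ to 3′ with the E-boxes in capitals.
Cdk4 upstream: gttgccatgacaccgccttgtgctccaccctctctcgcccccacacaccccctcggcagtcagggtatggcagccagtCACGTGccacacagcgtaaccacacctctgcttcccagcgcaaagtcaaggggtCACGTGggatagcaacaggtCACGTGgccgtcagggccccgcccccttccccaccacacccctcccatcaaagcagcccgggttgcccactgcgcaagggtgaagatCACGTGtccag
At least 1 CACGTG stood in 6.02% of 32851 promoters of that length and at least 4 in 7 of them (0.0213%). The motif reads alike on both strands and no copy overlaps another. Among the other member promoters only that of Cdk6 held a copy, at chr5:3343663-3343688, plus strand, with the E-box in capitals.
Cdk6 window: tctgcggcccCACGTGggtgaacccc
The E2F octamers TTTCCCGC, TTTCGCGC, TTTGCCGC and TTTGGCGC, searched on both strands, were in none of the 9 member promoters and in 1.86% of all. The FOXO heptamer TGTTTAC, also on both strands, stood in 3.17% of promoters and in 1 of the member promoters, that of Ccnd3 at chr17:47504801-47504824, plus strand, again in capitals.
Ccnd3 window: ggtctacTGTTTACttcctgggca
The NF-κB motif was in none of the 9 and in 7.25% of all. These are letter matches only.

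Cdk6 (ENSMUSG00000040274, chromosome 5 from 3341485 to 3531008, plus strand) encodes the second kinase partner of the D-type cyclins. The unstimulated libraries differed here: 1 and 2 were at 109.7 and 110.2 CPM, and 3 and 4 at 54.8 and 56.8 CPM, 1.97-fold apart. LPS brought the level to 214, 197, 204 and 198 CPM and IL-4+anti-CD40 to 160.1, 165, 167 and 162 CPM, above all 4 unstimulated libraries. On the log2 scale the change was 1.30 (SE 0.24, adjusted p = 0.0014 in edgeR) under LPS and 1.04 (SE 0.23, adjusted p = 0.0040) under IL-4+anti-CD40. Against libraries 1 and 2 alone these were 0.89 and 0.60, and against 3 and 4 alone 1.89 and 1.62, so the direction held with either pair and the size did not.

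DSF lowered Cdk6 slightly under LPS, to 187, 189, 183 and 172 CPM (log2 fold change -0.14, SE 0.04, adjusted p = 0.0062 in edgeR), and more under IL-4+anti-CD40, to 133, 132, 115 and 130.2 CPM (-0.42, SE 0.05, adjusted p = 4.7e-05). The libraries with and without DSF did not overlap under either stimulus. The difference between the effects was 0.28 (SE 0.07, adjusted p = 0.013). Fitted with all 20 libraries, which share 1 estimate of the spread, neither effect of DSF on Cdk6 passed (adjusted p = 0.44 and 0.071), and total counts gave -0.34 under LPS. Both DSF groups stayed above unstimulated cells, by 1.13 (SE 0.24, adjusted p = 0.0022) and 0.62 (SE 0.24, adjusted p = 0.043). The latter missed the threshold without unstimulated replicate 3 (adjusted p = 0.084) or 4 (0.099), and without any of the 4 IL-4+anti-CD40+DSF libraries (0.060 to 0.091), and with total counts (0.31, adjusted p = 0.30), although it passed at 0.18 and 1.20 against either pair of unstimulated libraries.

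Per length Cdk4 was the more abundant kinase transcript throughout. It held 86.3% ± 3.6 (SD, n = 4) of the summed FPKM of Cdk4 and Cdk6 without stimulus, 79.8% ± 0.65 under LPS and 86.7% ± 1.1 under IL-4+anti-CD40. The unstimulated share was 83.1% and 83.4% in libraries 1 and 2 and 89.4% and 89.4% in 3 and 4. The direction of the share under IL-4+anti-CD40 thus depended on the pair. DSF took the share to 73.8% ± 1.4 under LPS, where Cdk4 fell and Cdk6 changed little, and left it at 85.3% ± 1.0 under IL-4+anti-CD40.

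Ccne1 and Ccne2 encode the E-type cyclins, and their transcripts diverged. Ccne1 (ENSMUSG00000002068, chromosome 7 from 38097984 to 38107534, minus strand) was at 6.79, 6.68, 14.7 and 16.2 CPM without stimulus, at 4.71, 4.11, 4.63 and 4.35 CPM under LPS and at 1.70, 1.99, 1.90 and 2.73 CPM under IL-4+anti-CD40. All stimulated libraries were below all unstimulated ones, although unstimulated libraries 3 and 4 were 2.29-fold above 1 and 2. The log2 fold change was -1.32 (SE 0.31, adjusted p = 0.0056 in edgeR) under LPS and -2.37 (SE 0.35, adjusted p = 0.00035) under IL-4+anti-CD40, and against libraries 1 and 2 alone -0.60 and -1.68. With DSF and LPS it was -1.90 against all unstimulated libraries, -1.22 against 1 and 2 and -2.37 against 3 and 4. LPS lay above IL-4+anti-CD40 by 1.11 (SE 0.16, adjusted p = 0.00018).

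Under LPS, DSF lowered Ccne1 further, to 2.67, 2.80, 2.38 and 4.07 CPM (log2 fold change -0.55, SE 0.17, adjusted p = 0.0058 in edgeR). The highest of these libraries was just under the lowest LPS library. In the fit of all 20 libraries this call was lost (adjusted p = 0.080). Under IL-4+anti-CD40 it was at 1.51, 1.82, 2.04 and 2.31 CPM with DSF, a change of -0.16 on the log2 scale (SE 0.20, adjusted p = 0.51), and the groups overlapped. These values rest on 30 to 52 counts per library.

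Ccne2 (ENSMUSG00000028212, chromosome 4 from 11191351 to 11204779, plus strand) was low in unstimulated cells, at 3.45, 3.90, 3.68 and 5.13 CPM. It was at 5.43, 4.72, 4.68 and 5.25 CPM under LPS, overlapping the unstimulated range, and at 5.36, 5.23, 5.78 and 5.50 CPM under IL-4+anti-CD40, just above it. On the log2 scale it moved by 0.31 (SE 0.16, adjusted p = 0.12 in edgeR) under LPS and 0.49 (SE 0.16, adjusted p = 0.027) under IL-4+anti-CD40. The LPS change passed against unstimulated libraries 1 and 2 alone (0.45, adjusted p = 0.017), without unstimulated replicate 4 (0.45, adjusted p = 0.023) or in the fit of all 20 libraries (0.32, adjusted p = 0.038). The IL-4+anti-CD40 change was lost without unstimulated replicate 1, 2 or 3 or IL-4+anti-CD40 replicate 1 or 3 (0.42 to 0.50, adjusted p = 0.052 to 0.067). It was also lost against unstimulated libraries 3 and 4 alone (0.38, adjusted p = 0.076), with total counts (0.34, adjusted p = 0.084), without the filter (0.48, adjusted p = 0.065) and with the replicate block (0.51, adjusted p = 0.0503).

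DSF raised Ccne2 under both stimuli, to 7.15, 8.33, 7.97 and 6.79 CPM under LPS and to 9.07, 9.26, 8.96 and 7.06 CPM under IL-4+anti-CD40. Each library with DSF was above each without. The log2 change came to 0.61 (SE 0.13, adjusted p = 0.00013 in edgeR) and 0.59 (SE 0.12, adjusted p = 0.0011), and against unstimulated cells the DSF groups were higher by 0.90 (SE 0.16, adjusted p = 0.00089) and 1.09 (SE 0.17, adjusted p = 0.00037). Ccne2 was thus the one gene of the 10 that passed the test upward with DSF while its own level with the stimulus alone was already at or above the unstimulated mean. Its share of the summed E-type cyclin FPKM rose from 23.5% ± 7.0 (SD, n = 4) without stimulus to 46.2% ± 1.9 under LPS and 67.0% ± 4.6 under IL-4+anti-CD40, and stood at 66.1% ± 7.0 and 77.1% ± 5.2 with DSF.

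**Figure D2:**
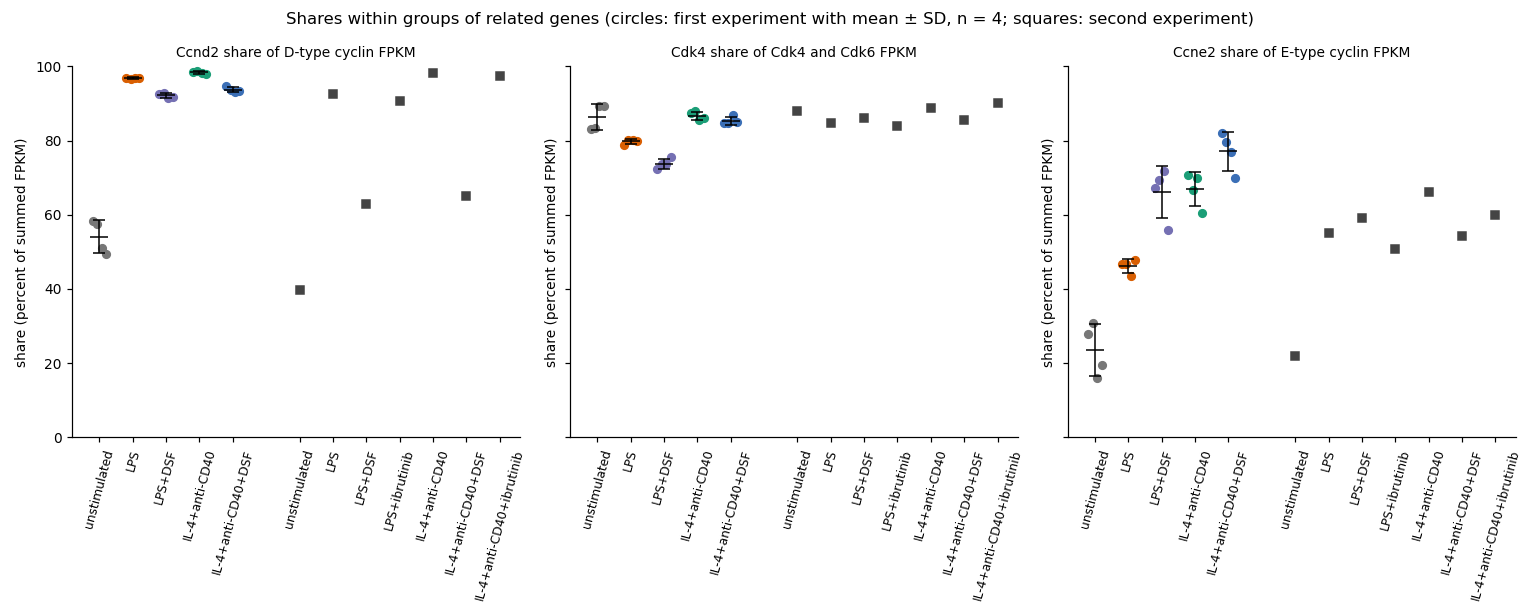
Share, in percent of summed FPKM, of Ccnd2 among the D-type cyclin genes (left), of Cdk4 in Cdk4 and Cdk6 (middle) and of Ccne2 in Ccne1 and Ccne2 (right), by group, with circles for the libraries of the first experiment (mean ± SD, n = 4) and squares for the single libraries of the second. The Ccnd2 share goes from 54.1% to 96.9% and 98.3% with the stimuli in the first experiment, and in the second it is 62.8% and 65.0% with DSF against 92.6% and 98.3% without.

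E2f1 (ENSMUSG00000027490, chromosome 2 from 154559407 to 154569892, minus strand), an activator of S phase genes, was at 6.87, 6.49, 13.1 and 13.0 CPM without stimulus, at 5.05, 4.99, 5.36 and 4.35 CPM under LPS and at 6.88, 6.20, 8.76 and 6.45 CPM under IL-4+anti-CD40. Libraries 3 and 4 of the unstimulated group were 1.96-fold above 1 and 2, and libraries 1 and 2 lay inside the IL-4+anti-CD40 range. In log2 terms the change was -0.996 (SE 0.26, adjusted p = 0.0089 in edgeR) under LPS, and -0.43 against libraries 1 and 2 alone. Under IL-4+anti-CD40 it was -0.43 (SE 0.27, adjusted p = 0.19), which was 0.11 against libraries 1 and 2 alone and -0.82 (adjusted p = 0.0012) against 3 and 4 alone. LPS was lower than IL-4+anti-CD40 by -0.51 (SE 0.13, adjusted p = 0.0092), which missed the threshold in the fit of all 20 libraries (adjusted p = 0.053).

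With DSF, E2f1 was at 6.12, 5.82, 6.17 and 6.17 CPM under LPS, above all LPS libraries, and at 5.95, 5.72, 6.31 and 7.06 CPM under IL-4+anti-CD40, inside the range without DSF. The change on the log2 scale was 0.31 (SE 0.13, adjusted p = 0.034 in edgeR) under LPS and -0.24 (SE 0.13, adjusted p = 0.15) under IL-4+anti-CD40, and the difference of 0.54 (SE 0.17, adjusted p = 0.033) passed. The LPS call was lost with DESeq2 (adjusted p = 0.11) and, in edgeR, with total counts (0.10, adjusted p = 0.48) and without the filter (0.25, adjusted p = 0.17). It was also lost in the fit of all 20 libraries (0.30, adjusted p = 0.22). The same held without any one of LPS replicates 1, 2 and 4 or LPS+DSF replicates 1, 3 and 4 (0.23 to 0.30, adjusted p = 0.060 to 0.13). The difference missed the threshold with DESeq2 (adjusted p = 0.055). In edgeR it missed with total counts (adjusted p = 0.057), without the filter (0.097) and in the fit of all 20 libraries (0.36). Both DSF groups were below unstimulated cells, by -0.71 (SE 0.25, adjusted p = 0.030) and -0.65 (SE 0.25, adjusted p = 0.045), calls that were lost against unstimulated libraries 1 and 2 alone (-0.19 and -0.13). They were also lost without unstimulated replicate 3 or 4 and without any library of the DSF group (adjusted p = 0.063 to 0.073 under LPS and 0.066 to 0.11 under IL-4+anti-CD40).

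Rb1 (ENSMUSG00000022105, chromosome 14 from 73183673 to 73325822, minus strand) encodes the retinoblastoma protein. It was at 101, 99.9, 99.6 and 94.0 CPM without stimulus, at 60.1, 62.9, 65.0 and 62.3 CPM under LPS and at 48.2, 44.7, 44.8 and 49.5 CPM under IL-4+anti-CD40. The unstimulated pairs were close here, and the 3 groups did not overlap. The log2 fold change was -0.66 (SE 0.05, adjusted p = 1.1e-05 in edgeR) under LPS and -1.02 (SE 0.06, adjusted p = 3.7e-06) under IL-4+anti-CD40, under LPS above IL-4+anti-CD40 by 0.42 (SE 0.05, adjusted p = 6.1e-05). DSF lowered it a little further under LPS, to 48.4, 55.5, 52.6 and 50.5 CPM (-0.26, SE 0.05, adjusted p = 8.2e-05). Under IL-4+anti-CD40 and DSF it was at 51.8, 49.3, 47.1 and 45.1 CPM (-0.01, SE 0.07, adjusted p = 0.86), a value whose sign turned with the scaling. Total counts gave -0.46 under LPS.

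Cdkn1b (ENSMUSG00000003031, chromosome 6 from 134920401 to 134925513, plus strand), the p27 gene, had the highest level of the 10 genes in the unstimulated cells of the first experiment, in CPM and at 39.6 FPKM also per length. In the single unstimulated library of the second, Cdk4 was at 33.8 FPKM and Cdkn1b at 32.8 FPKM. It was at 192, 189, 174 and 174 CPM without stimulus, at 45.8, 47.2, 51.5 and 51.4 CPM under LPS and at 38.5, 39.2, 43.9 and 45.0 CPM under IL-4+anti-CD40. Every stimulated library was far below every unstimulated one. In log2 terms the change was -1.89 (SE 0.07, adjusted p = 1.9e-07 in edgeR) under LPS, a decrease of 3.72-fold, and -2.08 (SE 0.07, adjusted p = 3.1e-07) under IL-4+anti-CD40, a decrease of 4.22-fold. LPS lay above IL-4+anti-CD40 by 0.24 (SE 0.07, adjusted p = 0.014), a call that was lost with total counts (0.11) and without IL-4+anti-CD40 replicate 2 (0.20, adjusted p = 0.0505).

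DSF raised Cdkn1b to 57.2, 59.8, 62.9 and 60.4 CPM under LPS and to 67.5, 62.4, 60.8 and 64.8 CPM under IL-4+anti-CD40, above all libraries with the stimulus alone. On the log2 scale the change was 0.31 (SE 0.05, adjusted p = 1.1e-05 in edgeR) and 0.56 (SE 0.07, adjusted p = 2.2e-05), and the difference of -0.25 (SE 0.08, adjusted p = 0.043) passed. With total counts the LPS value was 0.10 (adjusted p = 0.082). The level stayed 3.05-fold (LPS) and 2.85-fold (IL-4+anti-CD40) below that of unstimulated cells, so DSF moved the p27 transcript only a short way back.

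Cdkn2c (ENSMUSG00000028551, chromosome 4 from 109660876 to 109667189, minus strand), the p18 gene, was at 12.2, 10.9, 12.9 and 15.1 CPM without stimulus, at 3.56, 4.64, 4.10 and 4.91 CPM under LPS and at 6.42, 6.11, 4.61 and 5.56 CPM under IL-4+anti-CD40. It fell under LPS (log2 fold change -1.57, SE 0.15, adjusted p = 3.6e-05 in edgeR) and under IL-4+anti-CD40 (-1.11, SE 0.16, adjusted p = 0.00030), and no stimulated library reached an unstimulated one. With DSF it was at 3.70, 5.53, 3.79 and 5.49 CPM and at 5.29, 4.53, 5.94 and 5.07 CPM, overlapping the stimulus alone. The log2 fold change under DSF was 0.13 (SE 0.16, adjusted p = 0.49) under LPS and -0.18 (SE 0.14, adjusted p = 0.28) under IL-4+anti-CD40. Of the stimulated values, LPS was below IL-4+anti-CD40 by -0.40 (SE 0.15, adjusted p = 0.054), which passed with size factors (adjusted p = 0.044), with total counts (-0.53, adjusted p = 0.011) and without IL-4+anti-CD40 replicate 3 (-0.49, adjusted p = 0.021).

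**Figure D3:**
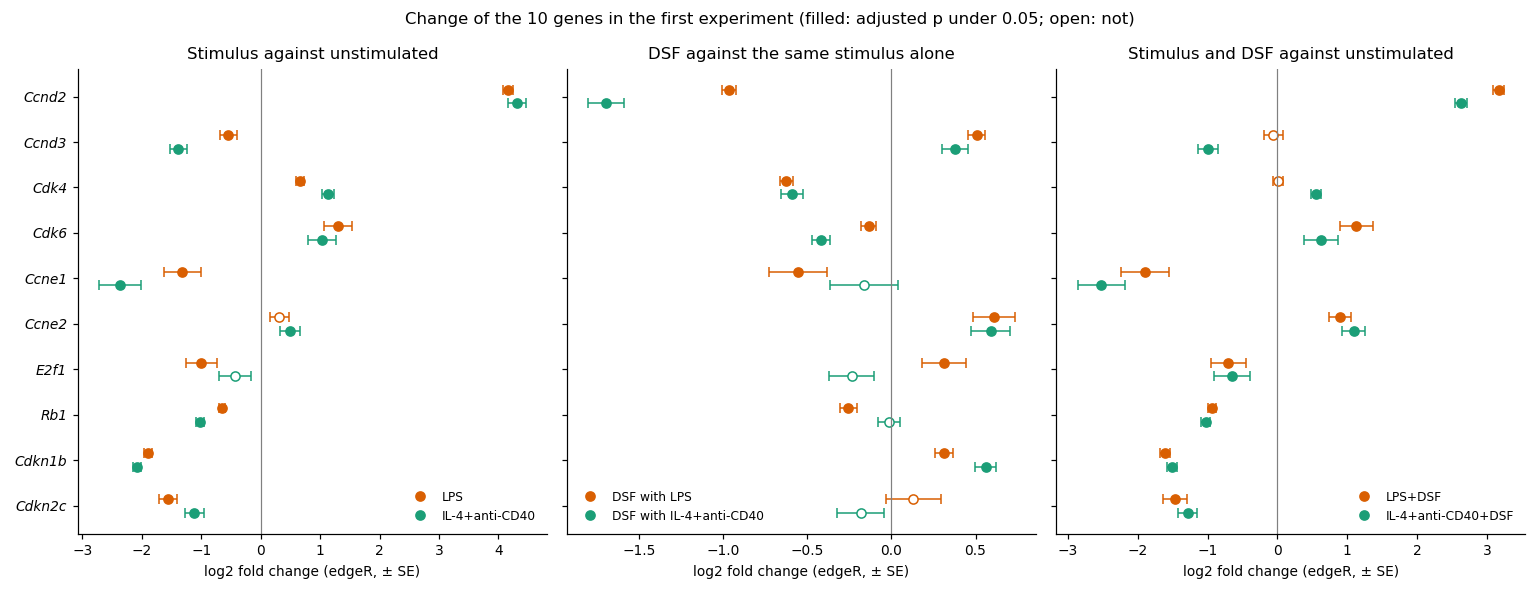
Log2 fold change ± SE (edgeR, 4 against 4 libraries) of the 10 genes for each stimulus against unstimulated cells (left), DSF against the same stimulus alone (middle) and stimulus with DSF against unstimulated cells (right), under LPS in orange, IL-4+anti-CD40 in green and open points where the adjusted p was not under 0.05. Ccnd2 is farthest to the right on the left panel at 4.16 and 4.31, and farthest to the left on the middle panel at -0.97 and -1.70.

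Between the stimuli themselves, 7 of the 10 genes differed: Ccnd3, Cdk6, Ccne1, Rb1 and Cdkn1b were higher under LPS, and Cdk4 and E2f1 were lower. Of all 14078 genes tested 39.7% passed in that comparison, 22.3% higher and 17.3% lower under LPS. The set therefore differed between the T-independent and T-dependent stimulus in most genes while its largest change, that of Ccnd2, did not pass. The calls of Cdk6 (0.31, adjusted p = 0.16) and E2f1 (adjusted p = 0.053) were lost in the edgeR fit of all 20 libraries. With single libraries left out, between 6 and 8 members passed.

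Against unstimulated cells, LPS+DSF left 3 genes higher (Ccnd2, Cdk6, Ccne2) and 5 lower (Ccne1, E2f1, Rb1, Cdkn1b, Cdkn2c), 8 of 10 where 71.6% of 14663 genes passed (34.3% higher and 37.3% lower). IL-4+anti-CD40+DSF left 4 higher (Ccnd2, Cdk4, Cdk6, Ccne2) and 6 lower, 10 of 10 where 68.7% of 14678 passed (33.4% higher and 35.3% lower). With single libraries left out, the counts lay between 7 and 8 for LPS+DSF and between 8 and 10 for IL-4+anti-CD40+DSF. The call of E2f1 was lost with 6 of the 8 libraries left out in turn in each comparison. That of Cdk6 was lost with 6 of 8 under IL-4+anti-CD40+DSF. Cdk4 and Ccnd3 did not pass the test against unstimulated cells under LPS+DSF, at log2 fold changes of 0.01 and -0.06. With total counts both passed, at -0.40 (adjusted p = 0.0022 in edgeR) for Cdk4 and -0.46 (adjusted p = 0.0078) for Ccnd3, and against unstimulated libraries 1 and 2 alone they passed in the opposite direction to each other, at -0.14 (adjusted p = 0.015) and 0.18 (adjusted p = 0.014). Against libraries 3 and 4 alone Ccnd3 was at -0.30 (adjusted p = 0.00011). These comparisons share the unstimulated libraries with those of the stimuli alone.

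The effect of DSF differed between the stimuli, by the test of the difference itself, for 5 of the 10 genes, where 14.9% of 15130 genes passed, 7.92% with a positive difference (LPS minus IL-4+anti-CD40) and 6.96% with a negative one. Ccnd2 and Cdk6 fell more under IL-4+anti-CD40, and Cdkn1b rose more with it. E2f1 rose and Rb1 fell with DSF and LPS, and neither passed under IL-4+anti-CD40. For Cdk6 the order was reversed in the second experiment, with 1 library a group, at -1.20 under LPS and -0.81 under IL-4+anti-CD40. The call of Ccnd2 was kept with each of the 16 libraries left out in turn and under the 6 other settings, and that of Cdk6 with each library left out but not with total counts (adjusted p = 0.060) or in the fit of all 20 libraries (adjusted p = 0.67). Those of E2f1, Rb1 and Cdkn1b were lost without the filter (adjusted p = 0.097, 0.099 and 0.088 in edgeR). They were also lost with 9, 10 and 10 of the 16 libraries left out in turn (differences of 0.43 to 0.60, -0.28 to -0.20 and -0.29 to -0.21). For E2f1 these were LPS replicates 2 and 4, LPS+DSF replicates 1, 3 and 4, IL-4+anti-CD40 replicate 3 and IL-4+anti-CD40+DSF replicates 1, 2 and 3. For Rb1 they were LPS replicates 2, 3 and 4, LPS+DSF replicates 1, 3 and 4, and replicates 2 and 3 without and 1 and 2 with DSF under IL-4+anti-CD40. For Cdkn1b they were LPS replicates 3 and 4, LPS+DSF replicates 1, 2 and 4, and replicates 1 and 2 without and 1, 2 and 4 with DSF under IL-4+anti-CD40.

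The second experiment gave the same signs for the largest changes, with 1 library per group and therefore no replicate check and no p-value. The intervals are 95% intervals from counting error alone. Ccnd2 was at 64.9 CPM without stimulus, 728 CPM under LPS and 1784 CPM under IL-4+anti-CD40, log2 ratios of 3.49 (3.41 to 3.57) and 4.78 (4.70 to 4.86). In this experiment the level under IL-4+anti-CD40 was thus above that under LPS, where the groups of the first experiment overlapped. Of the 10 genes, 4 moved 2-fold or more under LPS (Ccnd2, Cdk6 and Ccne2 higher, Cdkn1b lower) and 6 under IL-4+anti-CD40 (Ccnd2, Cdk4 and Cdk6 higher, Ccnd3, Ccne1 and Cdkn1b lower), beside 18.5% (8.62% higher, 9.88% lower) and 24.4% (10.7% higher, 13.7% lower) of the 14275 genes compared.

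With DSF, Ccnd2 was in the second experiment at 165 CPM under LPS, a log2 ratio of -2.14 (-2.20 to -2.08), and at 159.9 CPM under IL-4+anti-CD40, -3.48 (-3.54 to -3.42). Both ratios are larger in size than the fold changes of the first experiment, and both levels remained above the 64.9 CPM without stimulus. Cdk4 was lower by -1.03 and -1.23, to 93.9 and 104 CPM, and these levels lay below the 111 CPM without stimulus. Cdk6 was lower by -1.20 (-1.31 to -1.10) and -0.81 (-0.91 to -0.70), to 64.9 and 75.3 CPM beside 64.8 CPM without stimulus. The decrease of Cdk6 under LPS, small in the first experiment at -0.14, was thus 2.30-fold here. It was also larger than that under IL-4+anti-CD40, whereas in the first experiment it was the smaller.

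Ccnd3 was higher with DSF in the second experiment by 0.81 (0.69 to 0.93) under LPS and 1.62 (1.47 to 1.78) under IL-4+anti-CD40, and Cdkn1b by 0.62 (0.50 to 0.75) and 1.17 (1.03 to 1.31). Ccne2, which rose in the first experiment, gave 0.30 (-0.03 to 0.65) and 0.20 (-0.19 to 0.60), intervals that include 0. Rb1 went the other way from the first experiment, at 0.49 (0.38 to 0.61) and 0.45 (0.32 to 0.58), where the first had -0.26 and -0.01, and total counts gave 0.19 and 0.21. Ccne1 also differed, at 0.07 (-0.38 to 0.52) and 0.90 (0.36 to 1.51), where the first had -0.55 and -0.16. Cdkn2c was lower with DSF and LPS by -0.77 (-1.20 to -0.38), where the first experiment had 0.13, and with DSF and IL-4+anti-CD40 it gave -0.11 (-0.57 to 0.35). E2f1 gave -0.06 (-0.48 to 0.34) under LPS and -0.17 (-0.53 to 0.19) under IL-4+anti-CD40, where the first had 0.31 and -0.24. The rise of E2f1 with DSF and LPS was thus not seen in the second experiment. In all, 3 of the 10 genes moved 2-fold or more with DSF and LPS (Ccnd2, Cdk4, Cdk6, all lower) and 4 with DSF and IL-4+anti-CD40 (Ccnd2 and Cdk4 lower, Ccnd3 and Cdkn1b higher), beside 39.8% (20.3% higher, 19.5% lower) and 42.2% (21.9% higher, 20.3% lower) of all genes compared, shares near those of the members. The Ccnd2 share of D-type cyclin FPKM was 39.6% without stimulus, 92.6% and 98.3% with the stimuli and 62.8% and 65.0% with DSF added.

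Ibrutinib at the same concentration and time left Ccnd2 near the level of the stimulus alone, at 615 CPM under LPS (-0.24, -0.28 to -0.21) and 1445 CPM under IL-4+anti-CD40 (-0.30, -0.32 to -0.28), where DSF gave 165 and 159.9 CPM. Cdk4 was lower with ibrutinib by -0.50 and -0.42, and Cdk6 by -0.41 and -0.61. Ccnd3 was at 0.03 and 0.21, against 0.81 and 1.62 with DSF. For Cdkn1b, ibrutinib gave 0.80 (0.69 to 0.92) under LPS, above the 0.62 of DSF, and 0.66 (0.53 to 0.79) under IL-4+anti-CD40, below the 1.17 of DSF. E2f1 was lower with ibrutinib and IL-4+anti-CD40 by -0.74 (-1.09 to -0.41), where DSF gave -0.17. No member moved 2-fold with ibrutinib, beside 5.28% of genes under LPS and 3.92% under IL-4+anti-CD40. With 1 library each, these differences between the inhibitors carry no test. B cell markers summed to 6282 CPM with ibrutinib and LPS and 6447 CPM with ibrutinib and IL-4+anti-CD40, beside 4792 and 4436 CPM without inhibitor. T cell markers summed to 14.2 and 15.5 CPM with ibrutinib, beside 33.1 and 24.4 CPM. The part of these markers in the ratios was not tested.

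**Figure D4:**
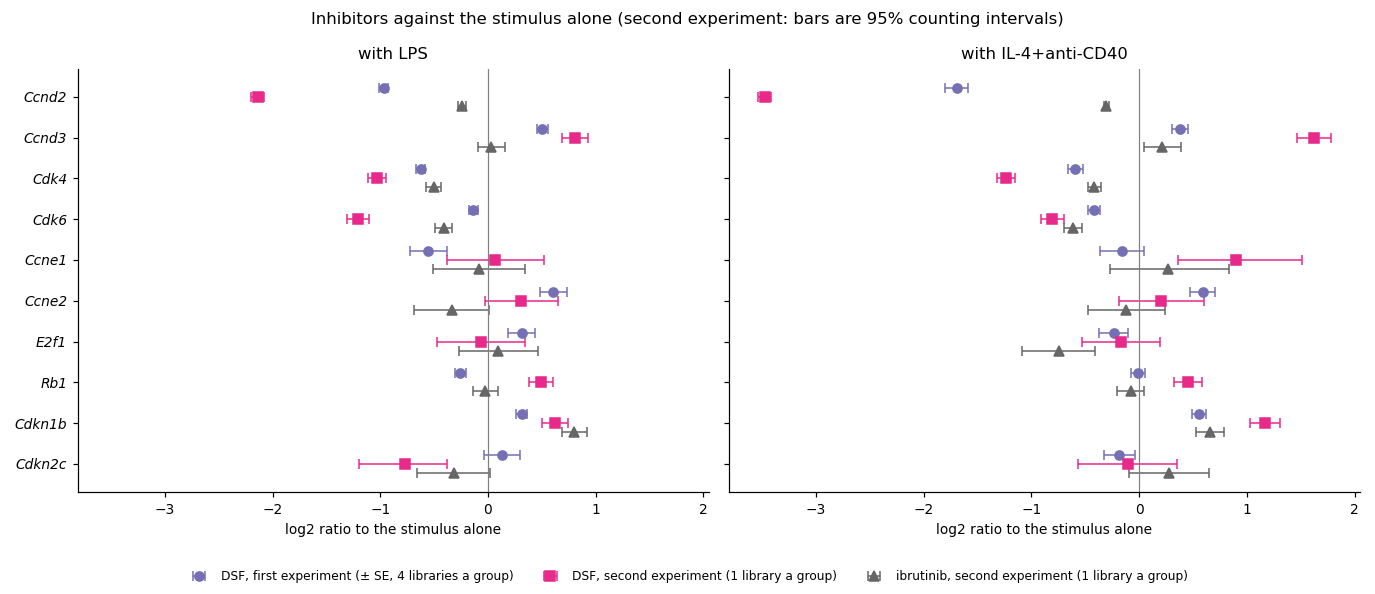
Log2 ratio to the stimulus alone of the 10 genes with DSF in the first experiment (circles, ± SE, 4 libraries a group), with DSF in the second (squares) and with ibrutinib in the second (triangles, both with 95% counting intervals, 1 library a group), for LPS (left) and IL-4+anti-CD40 (right). Ccnd2 lies at -0.97, -2.14 and -0.24 under LPS, and Cdkn1b is right of 0 for both inhibitors under both stimuli.

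Among the other genes of the pathway, from hand-written lists, the CDK inhibitors were the group that stood highest under DSF. Cdkn1a, which encodes p21, was the inhibitor with the largest increase under LPS, from 97.6 to 499 CPM (log2 fold change 2.37, SE 0.05, adjusted p = 2.1e-22 in edgeR), and under IL-4+anti-CD40 it went from 88.1 to 253 CPM (1.47, SE 0.29, adjusted p = 0.00094). Cdkn2d, which encodes p19, fell from 25.6 CPM without stimulus to 5.04 CPM under LPS and 4.20 CPM under IL-4+anti-CD40 and was at 16.3 and 12.1 CPM with DSF (1.71 and 1.47, adjusted p = 1.7e-12 and 4.6e-05). Of the list of 5, 3 of 4 tested were higher under LPS and 4 of 5 under IL-4+anti-CD40, and none was lower, with medians of 1.75 and 1.46 beside 0.00 and -0.02 over all genes. Of the inhibitors among the 10 genes, Cdkn1b rose less, by 0.31 and 0.56, and Cdkn2c did not pass.

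The counts of these wider lists with DSF stand beside 36% of all genes lower and 35.1% higher under LPS, and 31.6% lower and 30.1% higher under IL-4+anti-CD40. Of the other cyclins, kinases and activators of G1, 6 of 8 were lower and 1 was higher with DSF and LPS (median -0.30) and 5 were lower and 1 was higher under IL-4+anti-CD40 (median -0.29). Cdc25a, a phosphatase that activates CDK2, fell most, by -1.16 and -1.01, and Cdk2 was the gene that rose, by 0.48 and 0.31. Of 11 other E2F, DP and pocket protein genes, 4 rose and 6 fell with DSF and LPS and 4 rose and 5 fell under IL-4+anti-CD40. The ends of that list were E2f7 (1.38) and Rbl2, the p130 gene (-0.93), under LPS, and E2f6 (1.10) and E2f8 (-1.02), both repressors, under IL-4+anti-CD40. Of 9 ubiquitin ligase genes for G1 cyclins and p27, 4 rose and 4 fell with DSF and LPS and 3 rose and 3 fell under IL-4+anti-CD40, shares near those of all genes, with Skp2, which targets p27 for degradation, lowest under both, at -1.04 and -0.79. Skp1a was the highest of them, at 0.37 and 0.38.

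The genes downstream were split. Of all genes, 35.1% rose and 36% fell with DSF and LPS, and 30.1% rose and 31.6% fell under IL-4+anti-CD40. Of 17 E2F targets of S phase entry, 4 rose and 9 fell with DSF and LPS (median -0.15) and 4 rose and 11 fell under IL-4+anti-CD40 (median -0.30). Cdc6, a replication licensing gene, was highest under LPS (0.88) and Orc1, an origin recognition gene, under IL-4+anti-CD40 (0.65), while Rrm1, a ribonucleotide reductase subunit gene, was lowest under LPS (-0.90) and Tyms, the thymidylate synthase gene, under IL-4+anti-CD40 (-0.96). Of 16 G2 and mitosis genes, 1 rose and 8 fell under each stimulus (medians -0.25 and -0.31), with Birc5, the survivin gene, higher by 1.47 and 0.85 and Aurkb (-1.31, LPS) and Ccnb1 (-1.06, IL-4+anti-CD40) lowest.

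With the stimuli alone, against unstimulated cells, none of the 16 G2 and mitosis genes rose, and 9 fell under LPS and 8 under IL-4+anti-CD40 (medians -0.54 and -0.59), beside 33.3% and 32.1% of all genes lower. In the second experiment their medians were -0.03 and 0.10, with 8 and 7 of the 16 below 0. Of the 17 E2F targets, beside 29.6% and 30.4% of all genes higher, 4 rose and 4 fell under LPS and 6 rose and 1 fell under IL-4+anti-CD40, with Tk1, the thymidine kinase gene, highest under both (1.12 and 2.71) and Rrm2 lowest (-1.27 and -0.96). Rbl2, which marks quiescence, fell by -1.89 and -2.27, and Rbl1, the p107 gene, was the highest of its list under LPS at 1.24. Fbxw7, part of the ligase for cyclin E, rose under IL-4+anti-CD40 by 1.28. Cdkn1a was higher under LPS by 2.44 (SE 0.80, adjusted p = 0.026) and under IL-4+anti-CD40 by 2.33 (SE 0.86, adjusted p = 0.040).

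**Figure D5:**
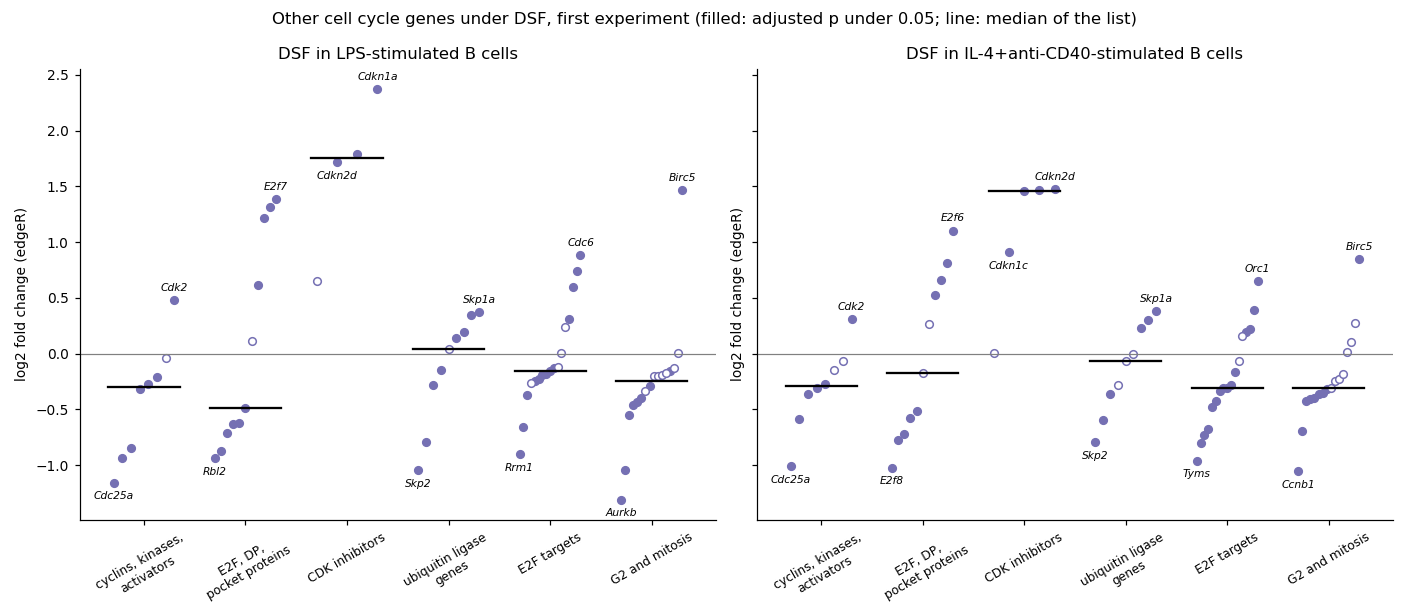
Log2 fold change (edgeR) under DSF of the other cell cycle genes, by hand-written list, under LPS (left) and IL-4+anti-CD40 (right), filled where the adjusted p was under 0.05, with a line at the median of each list and the highest and lowest called gene named. The CDK inhibitors have medians of 1.75 and 1.46, and the other lists lie between -0.48 and 0.04.

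Over the 20 libraries of the first experiment the pattern most like that of Ccnd2 within the set, in reverse, was that of Cdkn1b (Pearson correlation of log2 CPM -0.98, Spearman -0.93), a description in which the groups set most of the spread. Ccnd3 ran against Cdk4 (-0.92 and -0.88), and Ccne1 ran with Rb1 (0.90 and 0.84).

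The counting setting for strand is not given in the sources used here, and 6 of the 10 genes share exon bases with a gene on the other strand. These are Ccnd2 (372 bases with Gm43126 and 368 with 9330179D12Rik, which had at most 48 counts in a library), Ccnd3 (361 with Bysl), Cdk4 (641 with Tspan31), Cdk6 (368 with Gm17590, at most 13 counts), Ccne2 (609 with Ints8) and Rb1 (488 with Rcbtb2 and 408 with Lpar6). Reads in these stretches cannot be assigned without strand. Tspan31 had 237 to 544 counts per library and moved under DSF by -0.41 and -0.29, in the direction of Cdk4. Bysl moved by -0.67 and -0.88, against Ccnd3, and Rcbtb2 by -0.88 and -1.15, where Rb1 moved by -0.26 and -0.01. Ints8 gave -0.02 and -0.03, where Ccne2 rose.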

How the data were processed

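Per the labels, the authors sequenced poly-T-selected mRNA of 20 and 7 libraries, cleaned the reads with Fastp, aligned them to mm10 with HISAT2 2.0.5 and counted reads per gene with featureCounts 1.5.0-p3, so the deposited counts are whole reads per gene. The authors also deposited FPKM, which divide by gene length and depth; they were used for levels and shares between genes only. Groups followed the labels. The 10 members and all gene lists were chosen with earlier results of these data known. Counts were filtered with filterByExpr, scaled by TMM and tested with edgeR 4.0.16 (quasi-likelihood, R 4.3.3), 8 libraries a comparison and 16 for the difference of the DSF effects, with Benjamini-Hochberg adjustment over all genes tested and a threshold of 0.05. In the second experiment, log2 ratios used a prior count of 2 and were limited to genes whose mean count reached 10. Their 95% intervals, and the depth given with the results, bear on counting error only. Of the wider lists, the highest and lowest called genes of a comparison were named, and their values in other comparisons were added after they were seen. A gene of the wider lists is not reported here and was left out of its list. The scripts were tested on simulated data. Alternatives were DESeq2 1.42.0, its size factors, total counts, no filter, all 20 libraries in one fit, the replicate number as a block and each library left out. Replicate numbers were not taken as pairs.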

Additional observations from a re-analysis of the deposited data

Results flagged for a closer look

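In 3 of 50 gene and group combinations 1 of the 4 libraries stood far from the others, where chance marks about 1 in 20. Cdk6 was at 115 CPM in replicate 3 of IL-4+anti-CD40+DSF, with the others between 130.2 and 133 CPM. Ccne2 was at 7.06 CPM in replicate 4 of the same group, with the others between 8.96 and 9.26 CPM. E2f1 was at 5.82 CPM in replicate 2 of LPS+DSF, with the others between 6.12 and 6.17 CPM. This is a small gap, on 102 counts in a group that ran from 96 to 109 counts.

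The effect of DSF on 5 genes differed between the stimuli by the test of the difference (edgeR, LPS minus IL-4+anti-CD40, log2 scale), where 14.9% of 15130 genes passed. The differences were 0.73 for Ccnd2 (adjusted p = 0.00027), 0.28 for Cdk6 (adjusted p = 0.013), 0.54 for E2f1 (adjusted p = 0.033), -0.25 for Rb1 (adjusted p = 0.044) and -0.25 for Cdkn1b (adjusted p = 0.043). The calls of E2f1, Rb1 and Cdkn1b were lost with 9, 10 and 10 of the 16 libraries left out in turn. That of Cdk6 was lost in the fit of all 20 libraries (adjusted p = 0.67).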

How the results depend on the processing

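Outside the left-out libraries, 511 of the members' 560 alternative fold changes kept direction and side of the threshold, 9 passed anew, 28 lost the call and 12 changed sign. The number of members with a different DSF effect between the stimuli went from 5 to 3 with total counts, 2 without the filter and 3 in the fit of all 20 libraries, and lay between 2 and 5 with single libraries left out. The other counts of called members stayed within 1.5 times. These signs turned. E2f1 with IL-4+anti-CD40 was 0.11 against unstimulated libraries 1 and 2, and Cdkn2c under DSF with LPS was -0.0802 with total counts. Rb1 under DSF with IL-4+anti-CD40 was 0.0036 with size factors and 0.0457 in the fit of all 20 libraries, and -0.0526 to 0.0204 with libraries left out. Cdk4 in LPS+DSF against unstimulated cells was -0.40 with total counts, -0.0681 without the filter and -0.14 against unstimulated libraries 1 and 2, and -0.0533 to 0.046 with libraries left out, and Ccnd3 was 0.18 against those libraries and -0.189 to 0.0118. The difference of the DSF effects for Ccne2 was -0.0137 with DESeq2, -0.0101 with size factors, -0.0406 with total counts and -0.0589 in the fit of all 20 libraries, and -0.0746 to 0.0648 with libraries left out, and for Cdk4 -0.10 to 0.0041. Total counts moved the median of all genes with LPS from -0.05 to -0.27, with 2903 genes higher and 6387 lower in place of 4283 and 4818, and with DSF and LPS to -0.21, with 3473 and 6680 in place of 4966 and 5096.

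Same-numbered libraries correlated at -0.062 to 0.246 in their deviations from the group means, and in 0 of 10 pairs of groups did every correlation exceed 0.1, so the numbers were not taken as pairs. With the replicate block, the change of Ccne2 under IL-4+anti-CD40 (0.51, adjusted p = 0.0503) and the difference for Rb1 (-0.25, adjusted p = 0.064) missed the threshold in edgeR, and no other call of the members changed. The counts of the wider lists changed by over 1.5 times in 164 of 1536 alternatives, most of them counts of a few genes. Ccne1, Ccne2, E2f1 and Cdkn2c were the members with the fewest reads.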
